A study of Mus musculus with 6 samples.

Results

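Proliferating cells pass through G1, copy their DNA in S phase and divide in mitosis, and the genes for each stage are switched on in turn. D-type cyclins act with the kinases Cdk4 and Cdk6 in G1, the E2F transcription factors then turn on genes for replication, and cyclins A and B with Cdk1 lead the cell into mitosis. Plasmacytoid dendritic cells arise from dividing progenitors in the bone marrow and, once mature, are known to divide little. The genes described here are 40 cell cycle and DNA replication genes of the mouse, taken by symbol from a fixed list, out of 52550 genes in the deposited files. They are 3 D-type cyclins, 19 S phase genes and 18 mitosis genes, and all 40 passed the filter on low values that left 15265 genes to test.

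Messenger RNA of splenic plasmacytoid dendritic cells from mice of the C57BL/6 strain was sequenced. All cells had been stimulated for 12 hours with R837 (imiquimod), a small molecule that activates the endosomal receptor TLR7. The R837 group has 3 libraries without taurine, and the taurine group has 3 libraries of cells that received R837 together with taurine, a sulfur-containing amino acid that cells both make and take up. The comparison asks which cell cycle transcripts differ with taurine on a background of TLR7 stimulation, and it holds no unstimulated cells. The sources used here do not give the dose of either agent, the age or number of the mice, the sorting of the cells or whether replicates came from separate cultures. The p-values thus measure only the spread between these libraries, which may be technical.

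The libraries held between 33585080 and 38392654 reads on genes. The defining marker Siglech was at 11770 normalized counts on average with R837 and 11361 with taurine. The 20 listed markers of plasmacytoid dendritic cells were all tested. Of them, 3 were called higher (Bst2, Cox6a2 and Il3ra, log2 changes 0.38, 0.55 and 0.74), beside 3.75% of all tested genes. Another 4 were called lower (Tcf4, Runx2, Pacsin1 and Rpgrip1, log2 changes -0.51, -0.60, -0.38 and -0.57), beside 2.66%. Summed B cell markers lay between 2305 and 3503 with R837 and between 2548 and 3223 with taurine, and none of the 9 tested was called. The T cell genes Cd3d and Cd3g were at 0 in all 6 libraries, and the T cell list summed to between 87852 and 93866 with R837 and between 76068 and 82441 with taurine, nearly all of it Cd8a, the 1 of its 5 tested genes that was called (lower). Of the conventional dendritic cell markers, all 10 were tested and 2 were called lower (Clec9a and Flt3). Their sums, mostly Itgax, Flt3 and Sirpa, were between 37822 and 40005 with R837 and between 32052 and 35465 with taurine. The uncalled markers went both ways. Batf3, Itgae, Cadm1 and Zbtb46 had log2 changes of 0.54, 0.44, 0.15 and 0.12. Xcr1, Sirpa, Itgax and Cd209a had -0.0009, -0.21, -0.28 and -0.60. None of the 7 plasma cell and 3 natural killer cell markers tested was called. Of 10 monocyte and macrophage markers tested, 1 was called higher (Fcgr1, log2 change 0.86). The uncalled Adgre1, Cd14, Ccr2 and Mertk had -0.45, -0.22, -0.51 and -0.32. Csf1r, Lyz2, Ly6c2, C1qa and C1qb had 0.11, 0.11, 0.11, 0.19 and 0.26. Of 8 neutrophil markers tested, 1 was called higher (Ngp, 0.76). Camp and Ltf had -0.57 and -0.10, and S100a8, S100a9, Elane, Mpo and Csf3r had 0.46, 0.21, 0.87, 0.25 and 0.26. Of 5 erythroid markers tested, 1 was called higher (Hba-a1, from 34.4 to 87.8). Tfrc had -0.20, and Hba-a2, Hbb-bs and Alas2 had 0.85, 1.61 and 1.17. The part of other cell types in the results below was not tested. In such bulk samples, fewer cells of a type and less RNA per cell cannot be told apart.

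Replication and mitosis genes are known to carry different control elements before their start sites, so promoters are shown first. Windows of 300 bases, from 250 before the start to 50 after it, were found in the RefSeq table (GRCm38.p6) for 32 of the 40 genes, in 35 windows. Letters of the E2F element (TTTCCCGC, TTTGGCGC, TTTCGCGC or TTTGCCGC), of the CHR element of mitosis genes (TTTGAA or TTCGAA) and of the CCAAT box (CCAAT) were searched on both strands. An E2F motif was in 6 of the 19 S phase windows (31.6%), in 1 of the 14 mitosis windows (7.14%, that of Cdk1) and in 2.26% of all 32851 windows of the table. A CHR motif was in 4 of the 19 S phase windows (21.1%), in 11 of the 14 mitosis windows (78.6%) and in 19.2% of all windows. The CCAAT box was in 13 of the 19 S phase windows (68.4%), in 13 of the 14 mitosis windows (92.9%) and in 37.4% of all windows. A match of letters is a description and not a bound site.

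**Figure D1:**
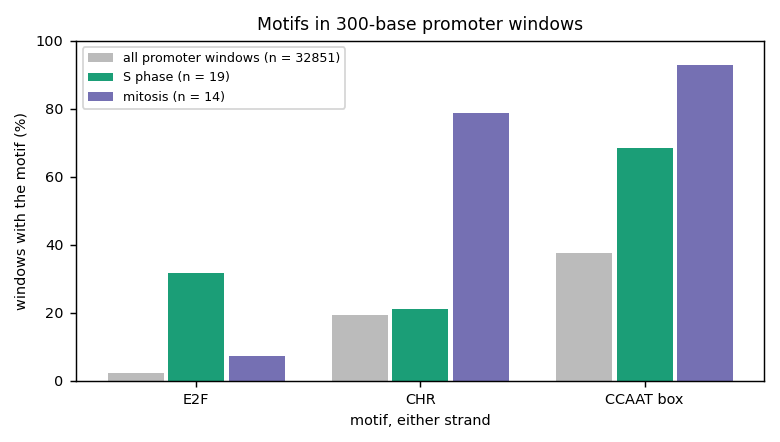
Share of 300-base promoter windows (y axis, percent) that hold each of 3 motifs on either strand (x axis), with bars for S phase windows, mitosis windows and all windows of the RefSeq table. E2F letters stood in 31.6% of S phase and 7.14% of mitosis windows, and CHR letters in 21.1% and 78.6%.

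The 4 windows below belong to members whose 3 R837 and 3 taurine values did not overlap and whose window held a motif. They run 5′ to 3′ on the strand of the gene, with motif letters in capitals, where CCAAT and its reverse complement ATTGG mark CCAAT boxes. In the window of Mcm6, a subunit of the helicase that unwinds DNA for replication (chr1:128359656-128359955, minus strand), TTTGGCGC is an E2F motif, and in the run TTTGGCGCGAAA it overlaps a second E2F motif on the other strand. In the windows of Cenpf (chr1:189688037-189688336, minus strand), Mki67 (chr7:135716330-135716629, minus strand) and Kif11 (chr19:37376132-37376431, plus strand), TTTGAA or its reverse complement TTCAAA marks CHR motifs.
Mcm6: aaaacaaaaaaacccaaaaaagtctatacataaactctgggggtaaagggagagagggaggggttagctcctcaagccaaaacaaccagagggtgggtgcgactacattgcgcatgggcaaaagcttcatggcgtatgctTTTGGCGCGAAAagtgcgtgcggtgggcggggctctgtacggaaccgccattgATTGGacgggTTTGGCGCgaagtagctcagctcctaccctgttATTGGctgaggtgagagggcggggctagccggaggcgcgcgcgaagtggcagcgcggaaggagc
Cenpf: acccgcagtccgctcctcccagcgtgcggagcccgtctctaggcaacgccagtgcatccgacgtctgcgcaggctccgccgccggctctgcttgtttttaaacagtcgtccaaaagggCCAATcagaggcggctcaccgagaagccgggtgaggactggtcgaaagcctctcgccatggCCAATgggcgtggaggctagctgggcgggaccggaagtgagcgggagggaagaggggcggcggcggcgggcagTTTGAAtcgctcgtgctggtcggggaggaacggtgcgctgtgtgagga
Mki67: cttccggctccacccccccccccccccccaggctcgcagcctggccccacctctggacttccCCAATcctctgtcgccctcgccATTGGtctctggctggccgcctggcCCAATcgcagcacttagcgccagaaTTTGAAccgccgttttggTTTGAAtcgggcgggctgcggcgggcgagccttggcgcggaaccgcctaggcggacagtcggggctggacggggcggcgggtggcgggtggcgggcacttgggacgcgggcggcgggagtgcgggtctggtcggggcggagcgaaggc
Kif11: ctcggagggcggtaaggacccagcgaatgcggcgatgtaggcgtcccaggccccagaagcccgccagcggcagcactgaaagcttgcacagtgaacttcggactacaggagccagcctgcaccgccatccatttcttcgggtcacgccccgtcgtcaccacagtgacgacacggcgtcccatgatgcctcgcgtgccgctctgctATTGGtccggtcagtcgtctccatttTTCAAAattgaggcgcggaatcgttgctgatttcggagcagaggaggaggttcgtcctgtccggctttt
No E2F motif was in the windows of these 3 mitosis genes and no CHR motif in that of Mcm6. The windows of Tk1 and Chaf1b, the only members called in the comparison below, held none of the 3 motifs.

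Across the 40 genes, 1 was called higher with taurine (Chaf1b) and 1 was called lower (Tk1) by limma, at a Benjamini-Hochberg adjusted p under 0.05 over the whole table. Of all tested genes, 6.41% were called in either direction, 3.75% higher (573 genes) and 2.66% lower (406 genes). When libraries were scaled by totals that leave out the 50 most abundant genes, the split was 462 higher and 585 lower, and with exon length and GC trends removed it was 646 and 287. The median log2 change, taurine against R837, was -0.03 over the 40 genes and -0.01 over all tested genes, and the median size of the change was 0.13 and 0.25. The 95% interval of the change lay within a 2-fold change either way for 38 of the 40 genes, the exceptions being Chaf1b and Ccne2. An unadjusted p under 0.05 was reached by 6 of the 40 members and by 23.7% of all tested genes. The 3 values of a group all lay on one side of the other group's in 7 of the 40 members, beside 29.6% of all tested genes.

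**Figure D2:**
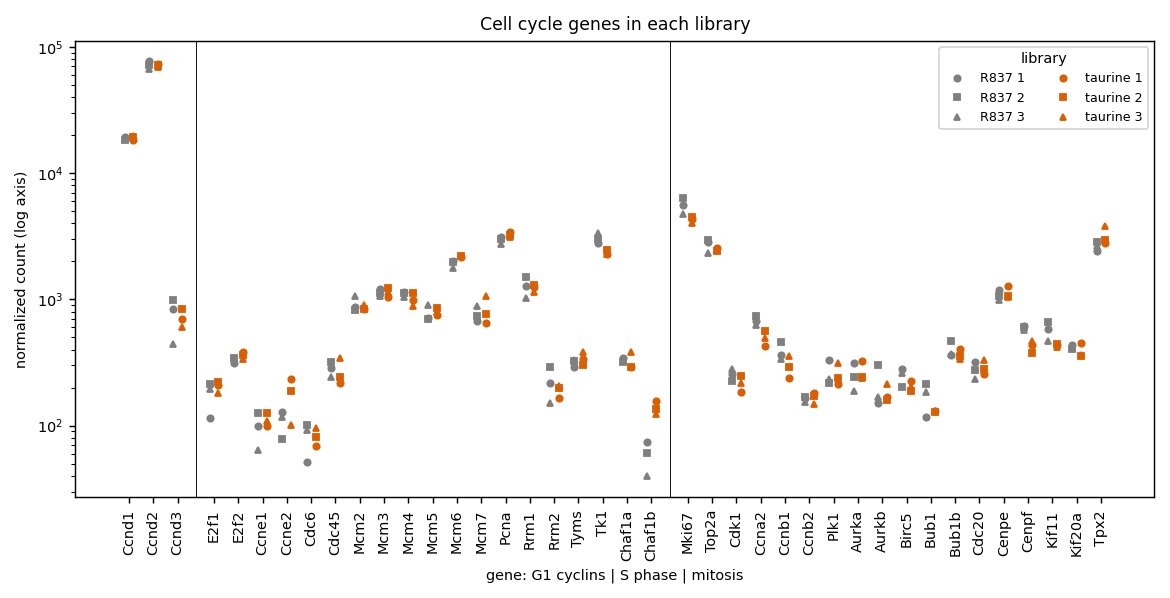
Normalized count (y axis, log scale) of each of the 40 genes (x axis) in every library, with R837 and taurine libraries side by side. Ccnd2 and Ccnd1 stand above all other members, and the values of the groups are intermingled for most genes.

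The D-type cyclins spanned the widest range of levels. Ccnd2 (cyclin D2) had 7610.0 normalized counts per kilobase of exon, Ccnd1 (cyclin D1) 4025 and Ccnd3 (cyclin D3) 83.8, as means of the 6 libraries. No S phase or mitosis member exceeded 1295 on that scale. Ccnd2 was at 76642, 71668 and 67072 normalized counts in R837 replicates 1 to 3 and at 72836, 71756 and 69653 in taurine replicates 1 to 3. The taurine values all fell inside the range of the R837 values, and the log2 change was -0.01 (95% interval -0.14 to 0.13, limma adjusted p = 0.971). Ccnd1 was at 19240.4, 18365 and 18566 with R837 and at 18319, 19431 and 19805 with taurine. Its groups overlapped, with a log2 change of 0.03 (95% interval -0.10 to 0.17, limma adjusted p = 0.772). Ccnd3 was at 845, 991 and 445 with R837 and at 694, 832 and 605 with taurine. Both the highest and the lowest of its values were R837 libraries, and the interval of its log2 change was wide, from -0.65 to 0.59 (change -0.03, limma adjusted p = 0.964). All 3 genes overlap another gene in the annotation, and the strand setting of the counting is not given in the sources used here, so reads of the partner cannot be told apart from theirs.

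Of the 19 S phase genes, 12 had a change above 0 and 7 below 0, with a median log2 change of 0.06. They ranged in level from 15.6 normalized counts per kilobase of exon (Cdc6, which loads the helicase at origins) to 1295 (Pcna, the sliding clamp of the DNA polymerases). The groups did not overlap for Chaf1b and Mcm6 (higher) and for Tk1 (lower), beside 14.6% of all tested genes higher and 15.0% lower. Their summed normalized counts were 15745, 16210.3 and 15756 with R837 and 15571, 16194 and 15787 with taurine. These sums of the groups thus spanned nearly the same range. Scaled to the library total (CPM), they were 440.9, 458.1 and 450.6 with R837 and 426.4, 443.1 and 431.7 with taurine. On that scale the range was lower with taurine, and the groups still overlapped.

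Chaf1b (chr16:93883901-93906115, plus strand, mm10) encodes a subunit of chromatin assembly factor 1, which places histones on newly copied DNA. It was at 74.5, 60.6 and 39.6 normalized counts with R837 and at 155, 135 and 123 with taurine, and each taurine library was above every R837 library. Its mean rose from 58.2 ± 17.6 to 138 ± 16.4 (SD, n = 3 per group), a log2 change of 1.27 with an SE of 0.29 (limma adjusted p = 0.0377). It was among the least abundant members, at 20.9 normalized counts per kilobase of exon. The call held in 1 of the 6 fits that left out a library (without R837 replicate 3, adjusted p = 0.0450) and was lost in the other 5, with adjusted p up to 0.113, while the change stayed between 1.02 and 1.47. Chaf1a, which encodes the large subunit of the same factor, had 329 ± 11.3 with R837 and 322 ± 52.6 with taurine (SD, n = 3), a log2 change of -0.04 (limma adjusted p = 0.912). Of its 8854 bases of exon, 4648 overlap Ubxn6 on the other strand, which was at 1105 with R837 and 1118 with taurine. The strand setting is not given, so reads of Ubxn6 cannot be told apart from those of Chaf1a.

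Tk1 (chr11:117815526-117826092, minus strand, mm10) encodes thymidine kinase 1, which salvages thymidine for DNA synthesis. Its normalized counts were 2809.7, 3005 and 3384 with R837 and 2291, 2478 and 2283 with taurine, so that all taurine libraries were below all R837 libraries. The mean fell from 3066 ± 292 to 2351 ± 110.2 (SD, n = 3), a log2 change of -0.38 with an SE of 0.09 (limma adjusted p = 0.0478). The call was lost in each of the 6 fits that left out a library, with adjusted p between 0.0652 and 0.140. Tk1 shares 83 bases of exon with Afmid on the other strand. With all reads of Afmid added, not only those of the shared bases, the log2 change was -0.25 (limma adjusted p = 0.214). Afmid itself was at 405 with R837 and 561 with taurine, so that sum cannot show what the shared bases add to Tk1. The other genes of nucleotide supply, Rrm1 and Rrm2 (subunits of ribonucleotide reductase) and Tyms (thymidylate synthase), had log2 changes of -0.03, -0.17 and 0.11, and none was called.

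The 6 subunits of the replicative helicase, Mcm2 to Mcm7, had no called member and log2 changes between -0.14 (Mcm4) and 0.19 (Mcm6). Mcm6 was at 2017, 1987 and 1762 normalized counts with R837 and at 2156, 2198 and 2210.0 with taurine. Its groups did not overlap, yet the gap was small against the spread of the R837 libraries, with an SE of 0.09 (limma adjusted p = 0.231). The other helicase loading and firing factors, Cdc6 and Cdc45, had log2 changes of 0.04 (95% interval -0.67 to 0.76) and -0.10 (95% interval -0.57 to 0.37).

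Pcna, the S phase member with the highest level per kilobase, was at 3104, 3012 and 2752 normalized counts with R837 and at 3423, 3259 and 3096 with taurine. Its groups overlapped at 1 library, with a log2 change of 0.14 and an SE of 0.08 (limma adjusted p = 0.346). A copy of Pcna by its symbol, Pcna-ps2, was at 62.7 with R837 and 89.9 with taurine, and reads may be split between them. How alike their sequences are was not tested. Among the regulators of S phase entry, cyclin E2 (Ccne2) was at 127, 78.9 and 118 with R837 and at 233, 187 and 101 with taurine. Taurine replicate 3 lay among the R837 libraries, and the log2 change of 0.63 had an SE of 0.33 (limma adjusted p = 0.298). Ccne2 overlaps Ints8, which was at 1965 with R837 and 2309 with taurine. With all reads of Ints8 added the log2 change was 0.25. That sum is mostly Ints8, so it cannot show what the shared bases add to Ccne2. Cyclin E1 (Ccne1) and the transcription factors E2f1 and E2f2 had log2 changes of 0.25, 0.27 and 0.12, and none was called.

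**Figure D3:**
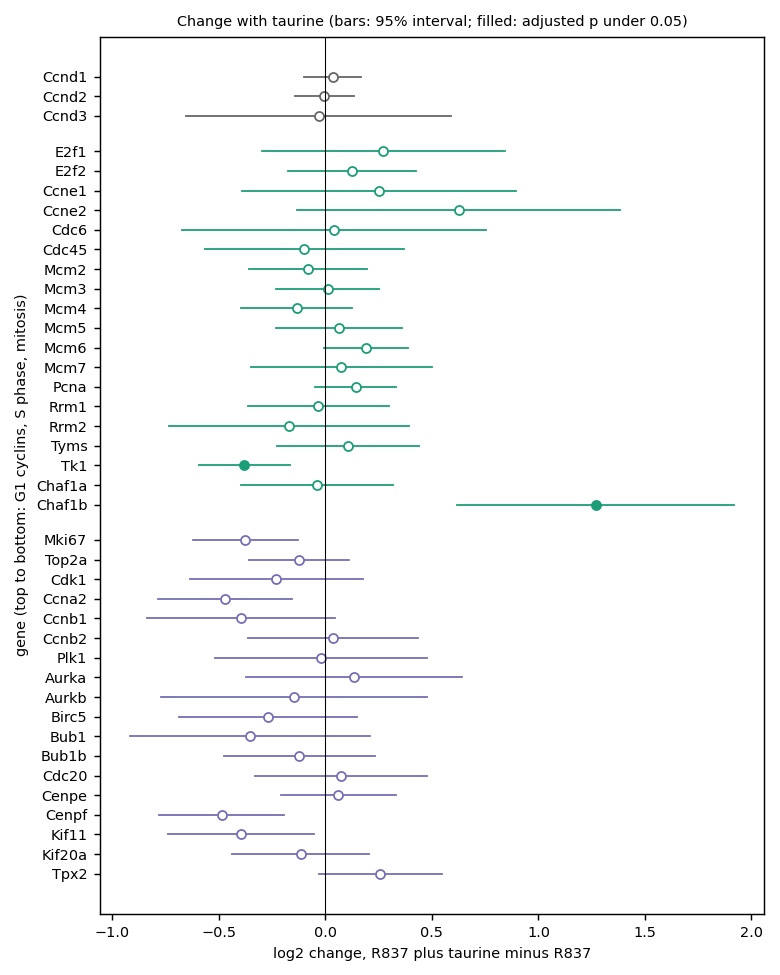
Log2 change of each of the 40 genes, taurine against R837 (x axis), with 95% intervals from limma as bars and genes with an adjusted p under 0.05 as filled points. Chaf1b at 1.27 and Tk1 at -0.38 are filled, and the intervals of most others cross 0.

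None of the 18 mitosis genes was called in either direction by limma. An unadjusted p under 0.05 was reached by 4 of them, beside 23.7% of all tested genes. DESeq2 on the recovered reads called 3 of the 18 mitosis genes lower (Cenpf, Mki67 and Ccna2), and it called 6.02% of all tested genes lower. edgeR's quasi-likelihood test called none of them, beside 2.48% of all tested genes lower. Of the 18, 13 had a change below 0 and 5 above 0, with a median log2 change of -0.14. The groups did not overlap for 4 of the 18, all lower with taurine (Cenpf, Mki67, Ccna2 and Kif11), beside 15.0% of all tested genes. The summed normalized counts of the list were 17034, 18457 and 15220.2 with R837 and 14996 (taurine replicate 1), 14943 and 15580.4 with taurine. R837 replicate 3 lay between the taurine libraries, so on that scale the sums of the groups overlapped. Scaled to the library total (CPM), they were 477.0, 521.5 and 435.3 with R837 and 410.6, 408.9 and 426.1 with taurine. On the CPM scale the groups did not overlap, and the sums were not tested on either scale. Mki67 was the most abundant of the 18 genes, with a mean of 4940 normalized counts over the 6 libraries. R837 replicate 2 was the highest library for 8 of the 18 genes.

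**Figure D4:**
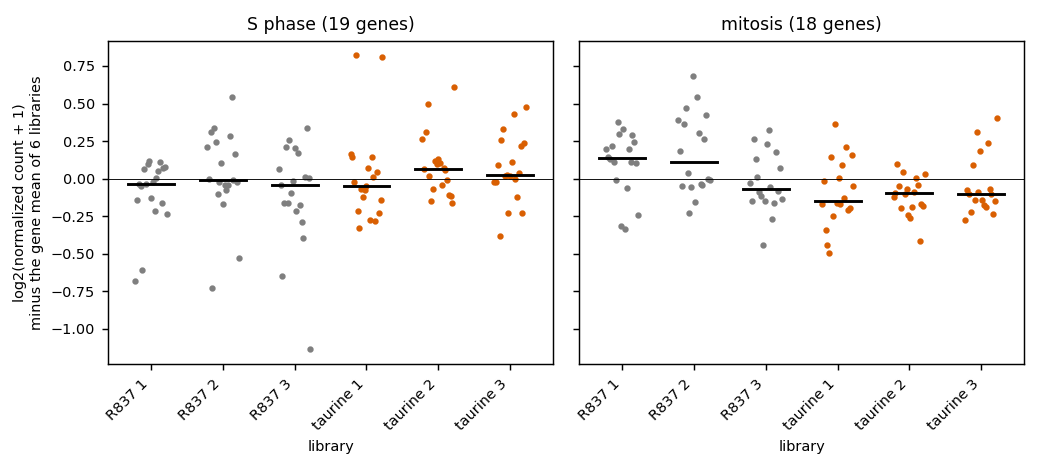
Deviation of log2(normalized count + 1) from the gene's mean over the 6 libraries (y axis) for S phase and mitosis genes in each library (x axis). The median deviation of the mitosis genes was 0.14, 0.11 and -0.07 in the R837 libraries and -0.15, -0.10 and -0.10 in the taurine libraries.

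Cenpf encodes a large protein of the kinetochore, where chromosomes attach to spindle microtubules. Its normalized counts were 616, 603 and 567 with R837 and 434, 376 and 468 with taurine, and every taurine library was below every R837 library. The means were 595 ± 25.1 and 426 ± 46.6 (SD, n = 3), a log2 change of -0.49 with an SE of 0.13 (limma adjusted p = 0.0610). DESeq2 gave an adjusted p of 0.0216, and no limma fit that left out a library called Cenpf (adjusted p from 0.0640 to 0.179). Mki67 encodes the proliferation marker Ki-67, which coats mitotic chromosomes. It was at 5601, 6398 and 4788 normalized counts with R837 and at 4330.1, 4491 and 4034 with taurine. The groups did not overlap, R837 replicate 3 being the lowest of its group, and the log2 change was -0.38 with an SE of 0.11 (limma adjusted p = 0.0743). DESeq2 gave an adjusted p of 0.0136. Of the 6 limma fits that left out a library, 1 called Mki67 (without R837 replicate 3, adjusted p = 0.0186), with adjusted p up to 0.220 in the others.

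Cyclin A2 (Ccna2), which acts in S phase and at entry to mitosis, was at 669.9, 742 and 631 normalized counts with R837 and at 425, 558 and 495 with taurine. All taurine libraries were below all R837 libraries, with a log2 change of -0.47 and an SE of 0.14 (limma adjusted p = 0.0788, DESeq2 adjusted p = 0.0322). Ccna2 shares 510 bases of exon with Exosc9, which was at 832 with R837 and 926 with taurine. With all reads of Exosc9 added the log2 change was -0.09. Exosc9 gives more of that sum than Ccna2, so it cannot show what the shared bases add to Ccna2. No limma fit that left out a library called Ccna2 (adjusted p from 0.0729 to 0.242). Kif11, the motor that pushes the spindle poles apart, was at 588, 666 and 469 with R837 and at 433, 441 and 421 with taurine. The taurine libraries were close to each other and below the lowest R837 library, and the log2 change of -0.40 had an SE of 0.15 (limma adjusted p = 0.152). It too was called in 1 of the 6 fits that left out a library (without R837 replicate 3, adjusted p = 0.0445), with adjusted p up to 0.399 in the others. In that fit Kif11 and Mki67 were the 2 mitosis members called, both lower, while 1477 genes were called in place of 979 and 4.65% of all tested genes were called lower, in place of 2.66%.

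The mitosis member with the highest level per kilobase, Tpx2 (623 normalized counts per kilobase of exon), which activates Aurora A on the spindle, had a change in the other direction. It was at 2436, 2868 and 2625 normalized counts with R837 and at 2787, 2941 and 3821 with taurine, and the groups overlapped. Its log2 change was 0.26 with an SE of 0.13 (limma adjusted p = 0.262). The cyclin B genes differed from each other in the estimate, with log2 changes of -0.40 for Ccnb1 (95% interval -0.84 to 0.05) and 0.04 for Ccnb2 (95% interval -0.36 to 0.44), and their difference was not tested. Their partner kinase Cdk1 had a log2 change of -0.23 (95% interval -0.64 to 0.17). The mitotic kinases Plk1, Aurka and Aurkb had log2 changes of -0.02, 0.13 and -0.15, and Birc5, which works with Aurkb at the centromere, had -0.27. Of the spindle checkpoint genes, Bub1 and Bub1b had -0.35 and -0.12, and Cdc20, the activator of the ligase that the checkpoint holds back, had 0.07. The DNA topoisomerase Top2a and the kinesins Cenpe and Kif20a had -0.12, 0.06 and -0.12. None of these was called.

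Library deviations moved with exon length in the direction of the groups. The Spearman correlation across genes between exon length and the deviation of a gene from its mean was 0.108, 0.147 and 0.0443 in R837 replicates 1 to 3 and -0.101, -0.131 and -0.203 in taurine replicates 1 to 3, and genes are not independent replicates. The union of exons was 15433 bases long for Cenpf, 10061 for Mki67 7461 for Kif11 and 4083 for Ccna2, against a median of 3707 over all tested genes. With length and GC trends removed, the log2 change was -0.28 for Cenpf (adjusted p = 0.277), -0.21 for Mki67 (adjusted p = 0.150), -0.26 for Kif11 (adjusted p = 0.330) and -0.39 for Ccna2 (adjusted p = 0.123). For Mcm6 it was 0.28 (adjusted p = 0.0615). Chaf1b stayed called (adjusted p = 0.0269), and Tk1 did not (adjusted p = 0.0602).

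Beyond these 40 genes, 167 further cell cycle genes were listed, of which 166 were tested, and 3 were called higher and 4 lower, beside 3.75% of all tested genes higher and 2.66% lower (6.41% in either direction). Of 60 other S phase genes, 1 was called higher (Nasp) and none lower, with a median log2 change of 0.03. Of 78 other mitosis genes, 1 was called higher (Pttg1) and 2 lower (Kif23 and Gas2l3), with a median of 0.00. Of 22 G1 kinases, pocket proteins and their factors, none was called higher and 2 were called lower (Myb and Myc), with a median of -0.12 and 16 of the 22 below 0. Of 7 inhibitors of cyclin-dependent kinases, 6 were tested, all 6 were above 0 with a median of 0.37, and 1 was called higher (Cdkn1a). The uncalled Cdkn2d, Cdkn2c, Cdkn1b and Cdkn2b had log2 changes of 0.03, 0.08, 0.24 and 0.82. Cdkn2a had 2.61 near the floor, at means of 7.47 with R837 and 28.4 with taurine. With no filter on low values the median was 0.24 over 7 genes. Genes above and below 0 numbered 7419 and 7846 over all tested genes.

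Cdkn1a encodes p21, which inhibits the cyclin-dependent kinases of G1 and S phase. It was at 14246, 13337 and 13005 normalized counts with R837 and at 19610.3, 18224 and 19573 with taurine. The groups were well apart, and the log2 change was 0.50 with an SE of 0.06 (limma adjusted p = 0.00675). The call held in all 6 fits that left out a library. Myb, a transcription factor of dividing progenitors, was at 2936, 2942 and 2779.8 with R837 and at 1983, 1925 and 1898 with taurine. It fell by 0.58 on the log2 scale with an SE of 0.08 (limma adjusted p = 0.00745), and this call also held in all 6 such fits. Myc, a transcription factor that drives cell growth and G1 progression, was at 4401, 4094 and 3694 with R837 and at 2963, 3012 and 3049 with taurine. All taurine libraries were below all R837 libraries, with a log2 change of -0.43 and an SE of 0.08 (limma adjusted p = 0.0244), but the call held in 1 of the 6 such fits (without R837 replicate 3, adjusted p = 0.0109), with adjusted p up to 0.100 in the others.

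**Figure D5:**
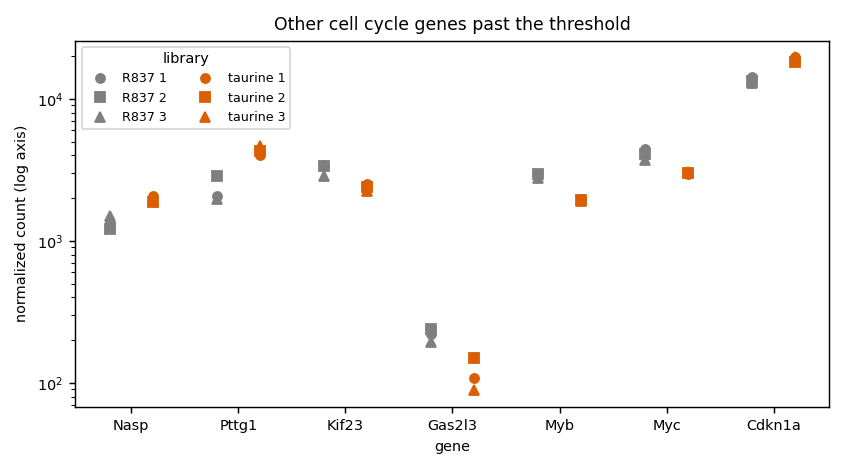
Normalized count (y axis, log scale) of the 7 called genes of the further lists (x axis) in every library. Cdkn1a, Nasp and Pttg1 are higher in every taurine library than in any R837 library, and Myb, Myc, Kif23 and Gas2l3 are lower.

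Pttg1 encodes securin, which keeps sister chromatids joined until anaphase. It was at 2059, 2879 and 1956 normalized counts with R837 and at 3995, 4286 and 4680.1 with taurine. The lowest taurine library was above the highest R837 library, with a log2 change of 0.93 and an SE of 0.14 (limma adjusted p = 0.0122), and the call was lost without taurine replicate 3 (adjusted p = 0.0553). Kif23, a kinesin of the central spindle needed for cytokinesis, was at 3418, 3390.3 and 2867 with R837 and at 2519, 2401 and 2234 with taurine. It fell by 0.43 on the log2 scale with an SE of 0.10 (limma adjusted p = 0.0373). Gas2l3, which links actin and microtubules, was at 219.8, 241 and 195 with R837 and at 109, 149 and 89.2 with taurine, with a log2 change of -0.94 and an SE of 0.23 (limma adjusted p = 0.0478). The groups of both genes did not overlap.

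Nasp encodes a chaperone of histones. It was at 1326, 1209 and 1507 normalized counts with R837 and at 2069, 1883 and 1948 with taurine. Each taurine library was above each R837 library, and the log2 change was 0.55 with an SE of 0.11 (limma adjusted p = 0.0219). Among fits that left out a library, the calls of Nasp and Kif23 held only without R837 replicate 3 (adjusted p = 0.0109 and 0.0139), with adjusted p up to 0.0900 and 0.141 in the others. Gas2l3 was called in none of them, with adjusted p between 0.0510 and 0.167.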

How the data were processed

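Messenger RNA libraries of 6 samples, 3 with R837 and 3 with R837 plus taurine, were grouped by their titles. The deposited values are a signal per gene that the authors call a normalized count, per the file headers. The submitters' processing notes name HISAT2, StringTie, mm8 and mm10 without roles or versions; the counting tool and its strand setting are not given. Of 52403 gene identifiers shared with GENCODE M21 (mm10), 95.2% had the same coordinates. Within a library all values were whole multiples of a single step, which lay between 0.944 and 1.06 (tolerance 0.001 of a read, 100% of values), so whole reads were recovered. For taurine replicate 1, whose step of 1.01 is close to 1, an automatic check of the recovery did not accept this reading, and the count tests below rest on it.

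The main test was limma 3.58.1 (R 4.3.3) with an abundance trend and 1 group term on log2(normalized count + 1), for genes with at least 10 normalized counts in at least 3 of 6 libraries, two-sided, with Benjamini-Hochberg adjustment over 15265 genes. A fold change on this scale understates the change of low genes. Recovered reads were tested with edgeR 4.0.16 and DESeq2 1.42.0 as alternatives, which called 950 and 1913 genes. The scripts were tested on simulated data. Intervals cover the spread between libraries.

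The members and lists were chosen with earlier results of these data known. Values per library are given for called members, for the 2 members with the highest level per kilobase and the 4 with the smallest p of the S phase and mitosis lists, for D-type cyclins and for called genes of further lists. Exon lengths and overlaps came from GENCODE M21 and promoter windows from RefSeq.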

Additional observations from a re-analysis of the deposited data

How the results depend on the processing

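The count of called genes, 979 of all tested, was 547 with no filter on low values, 1913 with DESeq2, 4 with limma without its abundance trend (3217 at an unadjusted p under 0.05) and 615 with the replicate block, and between 134 (without R837 replicate 2) and 1477 (without R837 replicate 3) when a library was left out. The 2 called S phase members became 0 with no filter, without the trend and with the replicate block, became 1 with TMM, edgeR, length and GC trends removed or reads of overlapping genes added, and were 0 to 1 without a library. The 0 called mitosis members became 1 (Cenpf) with a mean of at least 50 and with totals without the 50 most abundant genes, 3 with DESeq2, and 0 to 2 without a library. The 7 calls of the further lists became 14 with DESeq2, 0 without the trend, and 2 to 13 without a library. The S phase median ranged from -0.00098 (without R837 replicate 1) to 0.11 and the mitosis median from -0.21 to -0.11 without a library.

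Of 680 member values under alternatives, 44 changed sign, in 20 members, none of them Chaf1b or Tk1. With TMM Ccnd2 was at 0.00196 on the log2 scale and with edgeR at 0.000354. With length and GC trends removed, Ccnd2 was at 0.15, Mcm3 at -0.0247, Rrm1 at 0.14, Chaf1a at 0.00544, Top2a at 0.0318 and Cdc20 at -0.0150. With all reads of overlapping genes added (chosen after seeing the data), Ccnd3 was at 0.0835, Chaf1a at 0.00856 and Cdc20 at -0.18. Their partners Bysl, Ubxn6 and Elovl1 had more reads than these members, so the sums cannot show what the shared bases add. With totals without the 50 most abundant genes, Mcm3 was at -0.0222. The cause was not tested.

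Leaving out a library gave ranges of log2 change that crossed 0 for 19 members. They were Ccnd2 from -0.0537 to 0.0425, Ccnd3 from -0.38 to 0.20, E2f1 from -0.00098 to 0.45, Cdc6 from -0.25 to 0.22, Mcm7 from -0.12 to 0.23, Plk1 from -0.18 to 0.16, Mcm5 from -0.00477 to 0.18. They were also Rrm1 from -0.18 to 0.10, Rrm2 from -0.41 to 0.0564, Aurkb from -0.34 to 0.16, Ccne1 from -0.00907 to 0.47, Mcm2 from -0.15 to 0.0286, Mcm3 from -0.0428 to 0.0742. The others were Aurka from -0.0511 to 0.32, Cdc20 from -0.0413 to 0.19, Cenpe from -0.0271 to 0.13, Cdc45 from -0.29 to 0.0398, Chaf1a from -0.17 to 0.0289 and Ccnb2 from -0.0276 to 0.12. The same-numbered libraries of the groups had correlations of deviations between -0.043 and -0.003. They thus showed no shared replicate pattern, which cannot show whether the samples were paired. The replicate block took the called S phase members to 0. The shorter promoter window gave the same counts of motifs in members. With 3 libraries per group, 2-fold differences lay outside the 95% interval for 38 of the 40 members, and smaller ones were often not detectable.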
